A study of Mus musculus with 8 samples.

Results

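The expression of genes for developmental transcription factors was examined in kidneys of mice injected with cisplatin, a platinum chemotherapy agent that injures kidney tubules, and in kidneys of control mice. The genes were chosen by name alone. A protein-coding gene was taken when its symbol belonged to the Sox, Pax, Hox, Six-type, Lhx, Fox, Gata, Tbx, Eya, Irx, Emx, Snai, Twist, Zeb, Tfap2, Runx or Tead series, and when its row in the gene count table held 8 counts, 1 for each library. Of 176 rows with such a symbol, 93 met this second condition and came from 16 of the 17 families, with no Twist gene among them. The other 83 rows, those of Runx1, Pax2 and Foxm1 among them, held 10 counts that could not be assigned to libraries and were not used here. The 93 genes were taken from 35880 rows with 8 counts, and 66 of them had enough counts to be tested.

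The table covered RNA-seq of whole kidneys from 8 wild type mice, 4 in each group. Control mice received saline and cisplatin mice received 23 mg/kg of cisplatin, both by intraperitoneal injection, and kidneys were taken 72 h later. The methods of the study describe male C57/BL6J mice, and their age is not given in the sources used here. The libraries are called control 1, 2, 3 and 5 and cisplatin 1, 3, 4 and 6, after the numbers in their labels. The rows used held 13539665 to 16201443 counts per control library and 10953338 to 16701599 per cisplatin library. Values below are counts-per-million (CPM) after TMM scaling, which sets library sizes by trimmed mean ratios between libraries, given in that order of libraries. At this depth 3 counts corresponded to between 0.136 and 0.266 CPM, and this limit covers counting error only.

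Many of these proteins build the kidney in the embryo. Pax2, Pax8 and Lhx1 act in the nephric duct and the first tubules, Hox genes of the eleventh paralog group are needed for the kidney to form, and Sox9 acts in the branching collecting system. In the adult kidney some of them stay on in single nephron segments and others are nearly silent, and Sox9 is known to be switched on in tubule cells after acute injury.

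The libraries did not form a single even series, which bears on every value below. The first principal component of all tested genes (73.6% of the variance) separated the treatments, and the second (15.96%) set control 5, cisplatin 4 and cisplatin 6 apart from the rest, which are called the first set. Cisplatin 1 and 3 held 2 and 0 counts of Kdm5d and 3 and 0 counts of Eif2s3y, both genes of the Y chromosome, against 274 to 576 and 541 to 1333 in the other 6 libraries. These counts go against the stated sex of the mice for both libraries. Libraries of the same group differed by far more than counting error, so none was counted as a repeat of another. Exons of other genes overlap those of some of the 66 tested genes, 21 on the opposite strand and 10 on the same strand. Whether the counting used the strand is not stated, so reads of such pairs cannot be told apart; among the genes called below this holds for Sox4, Foxf1, Hoxa11, Tead2, Gata6, Tfap2a and Lhx6. For each called gene of these families, the log2FC is therefore also given without cisplatin 1 and 3 and in the first set alone. The first set compares controls 1, 2 and 3 with cisplatin 1 and 3 only. There the treatment and the difference in Y-linked counts cannot be told apart, so its values are no check on that difference.

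Of the 66 genes tested, 18 were up-regulated by at least a log2 fold change (log2FC) of 1 with an adjusted p below 0.05. They made up 27.3% of the genes tested, against 19.2% of all 9141 genes tested. Only 3 (4.55%) were down-regulated, against 15.7% of all genes. The median log2FC of the 66 genes was 0.36, beside 0.08 for all genes. After cisplatin 45 of the 66 had a higher estimate, beside 4866 of all 9141. That number was 37 of the 66 without cisplatin 1 and 3, and 59 with scaling by total library size. In 21 genes every cisplatin library lay above every control library, where 23.7% of all genes did, and in 4 genes every cisplatin library lay below, where 22.5% of all genes did. Without cisplatin 1 and 3 the numbers called were 15 up and 6 down, beside 21.4% and 20.5% of all genes. In the first set alone they were 18 up and 4 down, beside 17.6% and 16.3%. Scaling by total library size instead of TMM moved the median log2FC of all genes to 0.64 and gave 27 genes up and 2 down, beside 34.7% and 8.78%, and all of the 18 up-regulated genes were among the 27. By adjusted p alone, with no fold threshold, 21 genes were higher and 4 lower, beside 26.4% and 22.6% of all genes. Counts by family, cluster, list or marker below stand beside the same shares, 19.2% up and 15.7% down of all genes. They cover few genes each, and no such set was tested. In whole tissue, fewer cells of a type and less RNA per cell cannot be told apart.

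**Figure D1:**
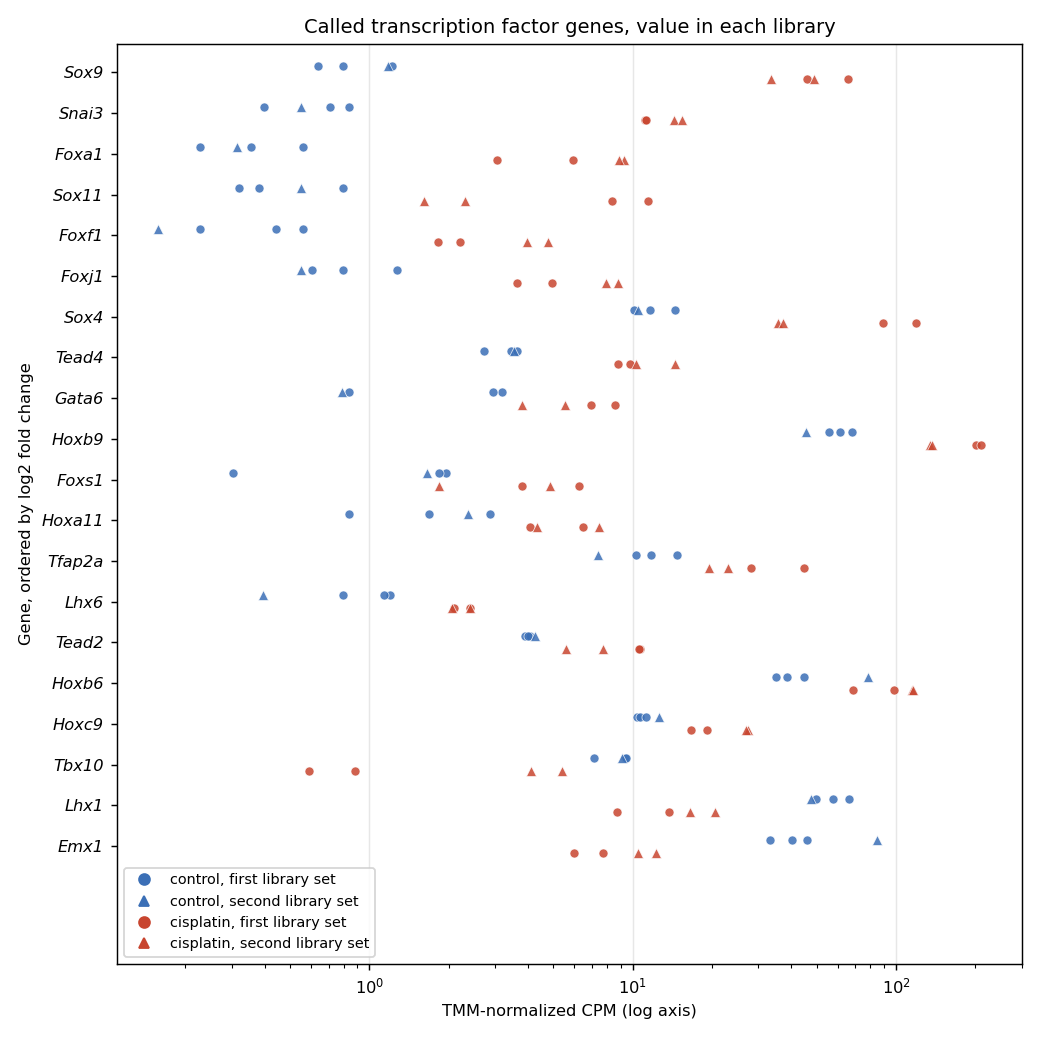
Values of 20 called genes in each library, on a log axis of TMM-normalized CPM; rows are genes ordered by log2FC, blue marks controls, red marks cisplatin, circles the first library set and triangles the second. The groups are separate in 15 of the 17 up-regulated genes shown and in all 3 down-regulated genes, and Hoxb6 and Foxs1 overlap.

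The Sox genes showed the widest changes, with 3 of 7 tested genes (42.9%) up-regulated and none down-regulated, beside 19.2% and 15.7% of all genes. Sox9 (ENSMUSG00000000567, chr11:112782224-112787760, GRCm38) measured 0.797, 0.638, 1.21 and 1.18 CPM in the controls and 45.8, 65.8, 33.6 and 49.0 CPM after cisplatin. The lowest cisplatin library stood far above the highest control. The mean went from 0.957 ± 0.284 to 48.5 ± 13.3 CPM (SD, n = 4 each), a log2FC of 5.65 (SE 0.31, adjusted p = 2.08e-06), the greatest of the 66 genes. It was 5.42 without cisplatin 1 and 3 and 5.90 in the first set.

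Sox4 and Sox11 belong to the SoxC group, which acts in progenitor cells of many organs, nephron progenitors included. Sox4 (ENSMUSG00000076431, chr13:28948919-28953713) measured 10.1, 11.6, 14.5 and 10.5 CPM in the controls and 89.6, 119, 35.7 and 37.1 CPM after cisplatin, a log2FC of 2.59 (SE 0.40, adjusted p = 0.000599). Sox11 (ENSMUSG00000063632, chr12:27334264-27342574) measured 0.797, 0.319, 0.379 and 0.550 CPM in the controls and 8.37, 11.4, 1.61 and 2.30 CPM after cisplatin, a log2FC of 3.53 (SE 0.69, adjusted p = 0.00233). In both genes the groups were apart, but cisplatin 1 and 3 were well above cisplatin 4 and 6, by 2.87 times for Sox4 and 5.05 times for Sox11. Without cisplatin 1 and 3 the log2FC was 1.65 for Sox4 and 1.93 for Sox11 (adjusted p = 0.0079 for Sox11), and in the first set it was 3.06 for Sox4 and 4.26 for Sox11. The antisense transcript Gm26735 overlaps Sox4 exons. The other tested Sox genes were not called. Sox18, an endothelial factor, had a log2FC of -0.14, Sox17 0.36, Sox12 -0.14 and Sox5 -0.13. Sox5 was called down-regulated without cisplatin 1 and 3, at -1.16 (adjusted p = 0.0351).

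The start regions of Sox4, Sox11 and Lhx1 are shown because they belong to genes that moved in opposite directions and lie within 150 bases of the gene starts in the deposited table. Each window runs from 250 bases before to 50 bases after the RefSeq start (GRCm38.p6), 5′ to 3′ on the strand of the gene. Capitals mark matches to CCAAT or GGGCGG on either strand, so ATTGG and CCGCCC are the same motifs read on the other strand. The windows are chr13:28953650-28953949 for Sox4, chr12:27342669-27342968 for Sox11 and chr11:84525485-84525784 for Lhx1, all on the minus strand.
Sox4: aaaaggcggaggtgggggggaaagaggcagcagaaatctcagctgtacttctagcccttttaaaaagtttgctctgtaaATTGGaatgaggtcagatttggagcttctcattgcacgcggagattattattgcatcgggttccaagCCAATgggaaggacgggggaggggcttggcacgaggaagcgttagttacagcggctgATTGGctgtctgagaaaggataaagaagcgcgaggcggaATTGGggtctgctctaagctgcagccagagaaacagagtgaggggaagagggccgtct
Sox11: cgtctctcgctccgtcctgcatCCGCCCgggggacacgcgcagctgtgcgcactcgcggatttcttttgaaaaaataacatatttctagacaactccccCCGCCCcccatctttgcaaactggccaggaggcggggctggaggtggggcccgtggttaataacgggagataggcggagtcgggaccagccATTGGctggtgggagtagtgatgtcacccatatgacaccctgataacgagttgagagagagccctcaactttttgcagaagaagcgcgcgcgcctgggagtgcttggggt
Lhx1: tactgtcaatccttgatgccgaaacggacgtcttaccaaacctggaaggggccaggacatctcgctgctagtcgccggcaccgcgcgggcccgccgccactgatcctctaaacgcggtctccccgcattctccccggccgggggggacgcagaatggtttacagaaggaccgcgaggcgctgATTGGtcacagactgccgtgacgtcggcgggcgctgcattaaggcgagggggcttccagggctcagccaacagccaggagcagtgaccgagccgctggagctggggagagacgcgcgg
Sox4 held 4 CCAAT matches, a number reached by 1.1% of the 32851 windows in the RefSeq table. Hoxa2, which was not called (log2FC 0.07), held 4 as well. Sox11 held 1 CCAAT and 2 GGGCGG matches, and Lhx1 held 1 CCAAT match. None of the 3 windows held TATAAA or TGAGTCA, the other motifs searched. Of the 59 genes of these families with a window, tested or not, 41 had it within 150 bases of the deposited start. That of Sox5 was 834871 bases away. Over the 59 genes, CCAAT occurred in 47.5% against 37.4% of all windows and GGGCGG in 54.2% against 35.7%. TGAGTCA occurred in 10.2% against 5.2% and TATAAA in 1.7% against 13.6%. Their median GC content was 61.3%, against 52.7% for all windows. A match describes the letters and not binding, and Sox9 and Snai3 had no window in the table.

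The Snai proteins are zinc finger repressors known for silencing cadherin genes when epithelial cells become motile, and the members of the family did not move together. Snai3 (ENSMUSG00000006587, chr8:122454208-122460733) measured 0.708, 0.399, 0.834 and 0.550 CPM in the controls and 11.1, 11.3, 14.3 and 15.4 CPM after cisplatin. The groups were far apart and the cisplatin libraries close to each other. Its log2FC was 4.37 (SE 0.31, adjusted p = 6.82e-06), next to that of Sox9 in size, and 4.56 without cisplatin 1 and 3 and 4.04 in the first set. Snai2 was not called (log2FC -0.95, adjusted p = 0.167), with 8.15, 6.70, 4.17 and 2.04 CPM in the controls and 4.46, 3.68, 1.39 and 1.19 CPM after cisplatin. Within the controls Snai2 covered most of the range of both groups. Without cisplatin 1 and 3 it was called down-regulated at -2.02 (adjusted p = 0.0212), a comparison of libraries 4 and 6 of cisplatin, both of the second set, with controls of which only control 5 is in that set. Snai1 was not called either (1.07, adjusted p = 0.109), with cisplatin libraries from 1.98 to 9.44 CPM, but was called up-regulated without cisplatin 4 (1.34, adjusted p = 0.0356). Zeb1, a repressor with similar targets, had a log2FC of 0.16.

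Genes known as targets of Snai, Zeb and Twist proteins were listed from general knowledge, and 15 of 24 had values. Of these, 8 were up-regulated and 2 down-regulated, with a median log2FC of 1.44 beside 0.08 for all genes. The up-regulated genes were largely epithelial genes that these repressors are known to silence. The listed genes without values were the mesenchymal genes Vim, Fn1, S100a4, Mmp2 and Acta2 and the epithelial genes Ocln, Cldn3, Tjp1 and Esrp2. The make-up of the called genes and the median therefore also reflect which rows held 8 counts. Cldn4, a tight junction claudin, measured 19.5, 15.7, 23.8 and 23.2 CPM in the controls and 624, 699, 997 and 1150.4 CPM after cisplatin (log2FC 5.40). The keratin genes Krt18 (4.72) and Krt8 (2.74), Cldn7 (3.01), Epcam (1.63), the desmosome gene Dsp (1.48), the epithelial regulator Grhl2 (1.44) and the fibronectin receptor subunit Itga5 (1.87) were also up-regulated. Among the cadherins listed, Cdh1 had a log2FC of 0.98, short of the fold threshold (adjusted p = 0.00134), and Cdh2 of -0.09. Every cisplatin library was above every control for Cdh1. It was called up-regulated in the first set (1.08) and was at 0.80 without cisplatin 1 and 3. The down-regulated genes were Cdh16, the kidney-specific cadherin (log2FC -1.04), and Ovol1, an epithelial repressor (-1.02). Both were unstable. Cdh16 was at -0.53 in the first set and at -1.74 without cisplatin 1 and 3, and its call was lost with total library size (-0.44, adjusted p = 0.289) and when control 1, 3 or 5 or cisplatin 4 or 6 was left out (-1.04, -1.03, -0.97, -0.88 and -0.83, with an adjusted p of up to 0.0617). Ovol1 was at -0.76 without cisplatin 1 and 3, at -0.46 with total library size (adjusted p = 0.0829), and under the fold threshold when control 1 or cisplatin 1, 3 or 6 was left out (-0.96, -0.90, -0.97 and -0.96). Dsp (0.82) and Grhl2 (0.93) were also under the fold threshold without cisplatin 1 and 3. That fit called 6 of the list up and 1 down, the first set 9 up and 1 down, and the fit with total library size 12 up and none down.

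Among 13 tested Fox genes 4 (30.8%) were up-regulated and none down-regulated, beside 19.2% and 15.7% of all genes. Foxa1, a pioneer factor of endodermal organs (ENSMUSG00000035451, chr12:57540628-57546916), measured 0.354, 0.558, 0.228 and 0.315 CPM in the controls, which is 3 to 7 counts per library, and 3.05, 5.94, 9.30 and 8.88 CPM after cisplatin (log2FC 4.19, SE 0.48, adjusted p = 0.000103). Foxj1, the regulator of motile cilia (ENSMUSG00000034227, chr11:116330704-116335399), measured 0.797, 1.28, 0.607 and 0.550 CPM in the controls and 3.64, 4.95, 7.91 and 8.80 CPM after cisplatin (2.95, SE 0.42, adjusted p = 0.000344). Foxf1, a mesenchymal and endothelial factor (ENSMUSG00000042812, chr8:121084386-121088144), measured 0.443, 0.558, 0.228 and 0.157 CPM in the controls, which is 2 to 7 counts, and 1.82, 2.20, 3.95 and 4.76 CPM after cisplatin (3.17, SE 0.50, adjusted p = 0.000672). All 3 were low in every control and higher in every cisplatin library, and the order within cisplatin was the reverse of that of Sox4 and Sox11, with cisplatin 4 and 6 above cisplatin 1 and 3. The log2FC without cisplatin 1 and 3 was accordingly larger than in the first set, at 4.62 and 3.48 for Foxa1, 3.36 and 2.20 for Foxj1 and 3.63 and 2.22 for Foxf1. All of these stayed past both thresholds.

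Foxs1, a factor of perivascular cells, was the least secure of the Fox calls. It measured 1.95, 1.83, 0.303 and 1.65 CPM in the controls and 6.28, 3.79, 1.83 and 4.84 CPM after cisplatin (log2FC 1.55, SE 0.54, adjusted p = 0.0375). Cisplatin 4 fell within the control range. The adjusted p was 0.0563, 0.0615, 0.0573 and 0.0633 when control 1, 2, 3 or 5 was left out, and 0.0946, 0.0554 and 0.0727 without cisplatin 1, 3 or 6, with a log2FC between 1.20 and 1.72 in these fits. It was 1.21 without cisplatin 1 and 3 (adjusted p = 0.14), where the call was lost, and 1.84 in the first set. The 9 Fox genes that were not called included the most abundant ones per kilobase of transcript. Foxo4, which restrains growth and answers stress, had 20.5 CPM per kb in controls and 13.1 CPM per kb after cisplatin, and its log2FC of -0.65 passed the adjusted p (0.008) but not the fold threshold. Foxj2 had 14.8 and 19.2 CPM per kb (log2FC 0.38, adjusted p = 0.0902). Foxc1, a factor of kidney mesenchyme and podocytes, measured 30.0, 38.4, 22.5 and 22.5 CPM in the controls and 56.3, 40.6, 50.4 and 56.7 CPM after cisplatin. Its groups did not overlap, and its log2FC of 0.85 was short of the fold threshold (adjusted p = 0.00828). Foxd1, a marker of the stromal lineage, had a log2FC of 1.08 without passing the test (adjusted p = 0.0571). Foxd1 was called with DESeq2 (1.05, adjusted p = 0.0396), with the library set as a covariate (1.19, adjusted p = 0.0342) and without cisplatin 4 (1.29, adjusted p = 0.0273). Upper quartile scaling (1.13) and a minimum of 10 counts in every library (1.11) also gave the call. The first set (0.76) and the fit without cisplatin 1 and 3 (1.12, adjusted p = 0.0965) did not. Foxc1 was called without control 2 (1.02), and Foxd2 without cisplatin 1 and 3 (1.11, adjusted p = 0.0102).

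**Figure D2:**
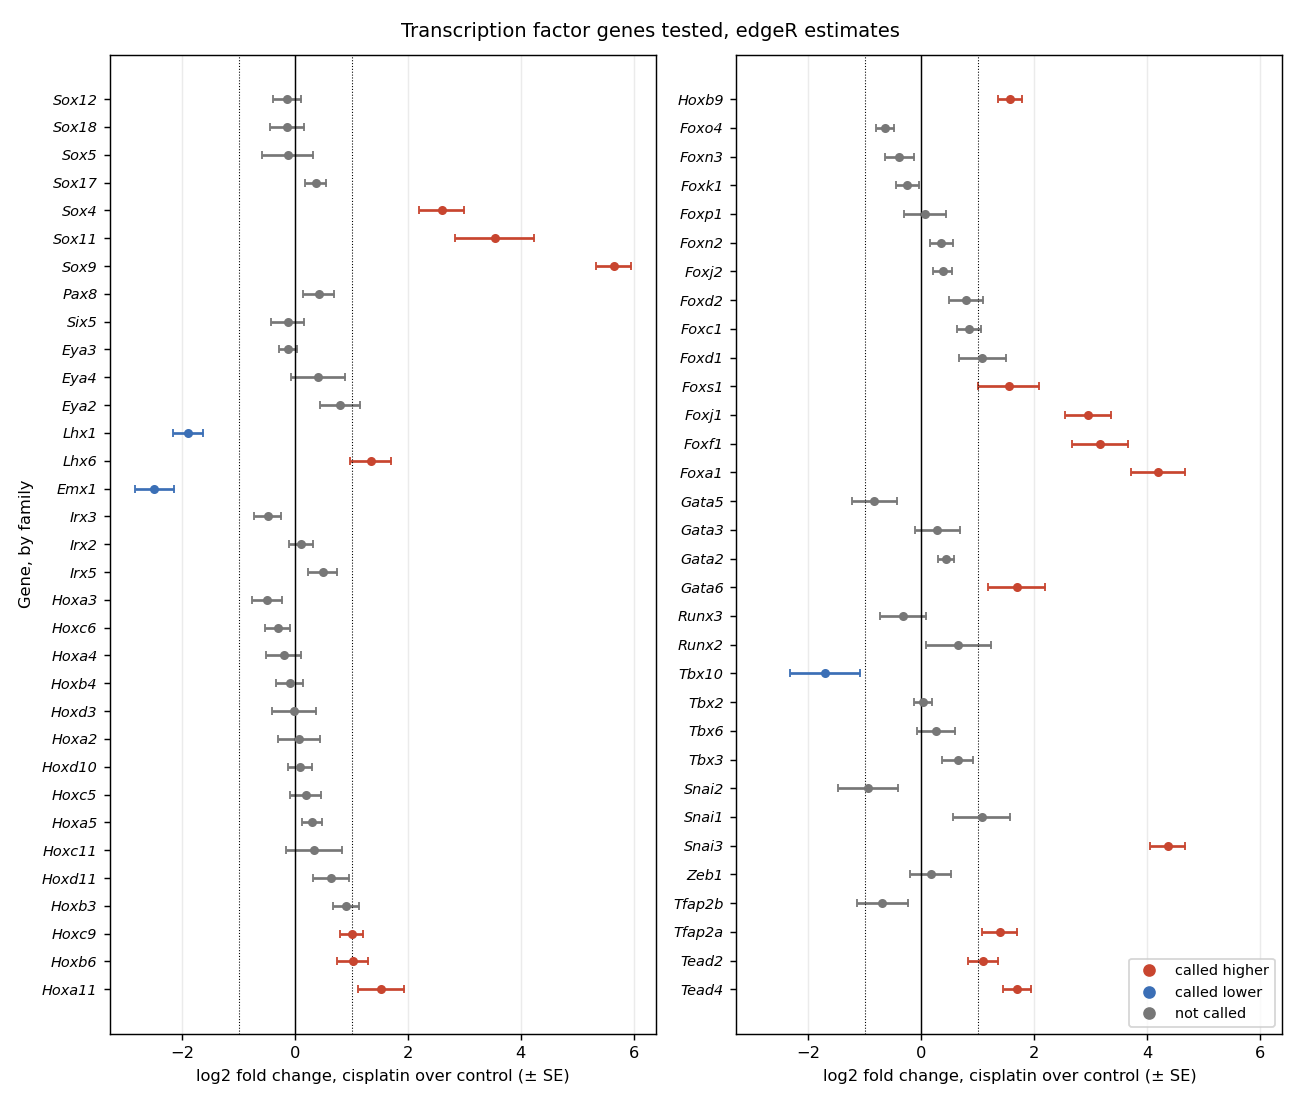
Log2FC of cisplatin over control for 65 tested genes, grouped by family, with bars for 1 standard error and dotted lines at -1 and 1. Red genes were called higher, blue lower and grey genes were not called. Up-regulated genes occur in the Sox, Snai, Fox, Hox, Tead, Gata, Tfap2 and Lhx families, from 1.002 for Hoxc9 to 5.65 for Sox9, and the 3 down-regulated genes are Emx1, Lhx1 and Tbx10.

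Hox genes, which give cells their position along the body axis, formed the largest family with 22 genes. Of 17 tested, 5 (29.4%) were up-regulated and none down-regulated, beside 19.2% and 15.7% of all genes. By cluster these were 2 of 6 Hoxa genes, 2 of 4 Hoxb genes, 1 of 4 Hoxc genes and 0 of 3 Hoxd genes. The control kidneys already held Hoxb9 and Hoxb6 at 22.4 ± 3.64 and 24.98 ± 10.02 CPM per kb (SD, n = 4), and these were the highest levels per length in the family. After cisplatin the levels were 66.4 ± 15.9 and 50.6 ± 11.3 CPM per kb.

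Hoxb9 (ENSMUSG00000020875, chr11:96271457-96276595) measured 55.9, 67.8, 61.1 and 45.6 CPM in the controls and 201, 211, 134 and 137 CPM after cisplatin. Every cisplatin library was well above every control, with a log2FC of 1.57 (SE 0.21, adjusted p = 0.000231), which was 1.24 without cisplatin 1 and 3 and 1.69 in the first set. Hoxb6 (ENSMUSG00000000690, chr11:96292476-96301569) measured 35.2, 38.5, 44.7 and 78.0 CPM in the controls and 68.7, 97.8, 115 and 116 CPM after cisplatin, a log2FC of 1.02 (SE 0.28, adjusted p = 0.0127). Control 5 lay above cisplatin 1. The Hoxb6 estimate sat at the fold threshold and fell under it, at 0.88, 0.91, 0.96, 0.94 and 0.94, when control 1, 2 or 3 or cisplatin 4 or 6 was left out. It was also under it with DESeq2 and with its size factors (0.996 in both), and with the library set as a covariate (0.89). All of these fits kept an adjusted p below 0.05. It was 1.25 without cisplatin 1 and 3 and 1.02 in the first set.

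Hoxa11 and Hoxc9 were lower in abundance. Hoxa11, of the paralog group needed for the ureteric bud to form, measured 1.68, 2.87, 0.834 and 2.36 CPM in the controls and 6.46, 4.07, 4.32 and 7.45 CPM after cisplatin (log2FC 1.52, SE 0.40, adjusted p = 0.0108). Hoxc9 measured 10.4, 10.7, 11.2 and 12.6 CPM in the controls and 16.6, 19.1, 27.4 and 26.9 CPM after cisplatin (1.002, SE 0.21, adjusted p = 0.00329). In neither did the groups overlap. The log2FC of Hoxa11 was 1.60 without cisplatin 1 and 3 and 1.49 in the first set. Hoxc9 was under the fold threshold, at 0.96, 0.97, 0.99, 0.89 and 0.91, when control 1, 2 or 3 or cisplatin 4 or 6 was left out, at 0.98 with DESeq2 and with its size factors, at 0.86 with the set as a covariate, and at 0.67 in the first set alone, beside 1.28 without cisplatin 1 and 3. The antisense transcript Hoxa11os overlaps exons of Hoxa11.

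The 12 Hox genes that were not called ranged from -0.50 for Hoxa3 to 0.90 for Hoxb3. Hoxb3 measured 11.3, 9.25, 12.4 and 10.2 CPM in the controls and 13.6, 27.6, 21.0 and 18.7 CPM after cisplatin, with separate groups and an adjusted p of 0.0102, and it was called without cisplatin 1 (1.05). Hoxb4, which lies between the Hoxb genes that were called and Hoxb3, had a log2FC of -0.10. Hoxd10 (0.09), Hoxd11 (0.64) and Hoxd3 (-0.02) were not called.

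**Figure D3:**
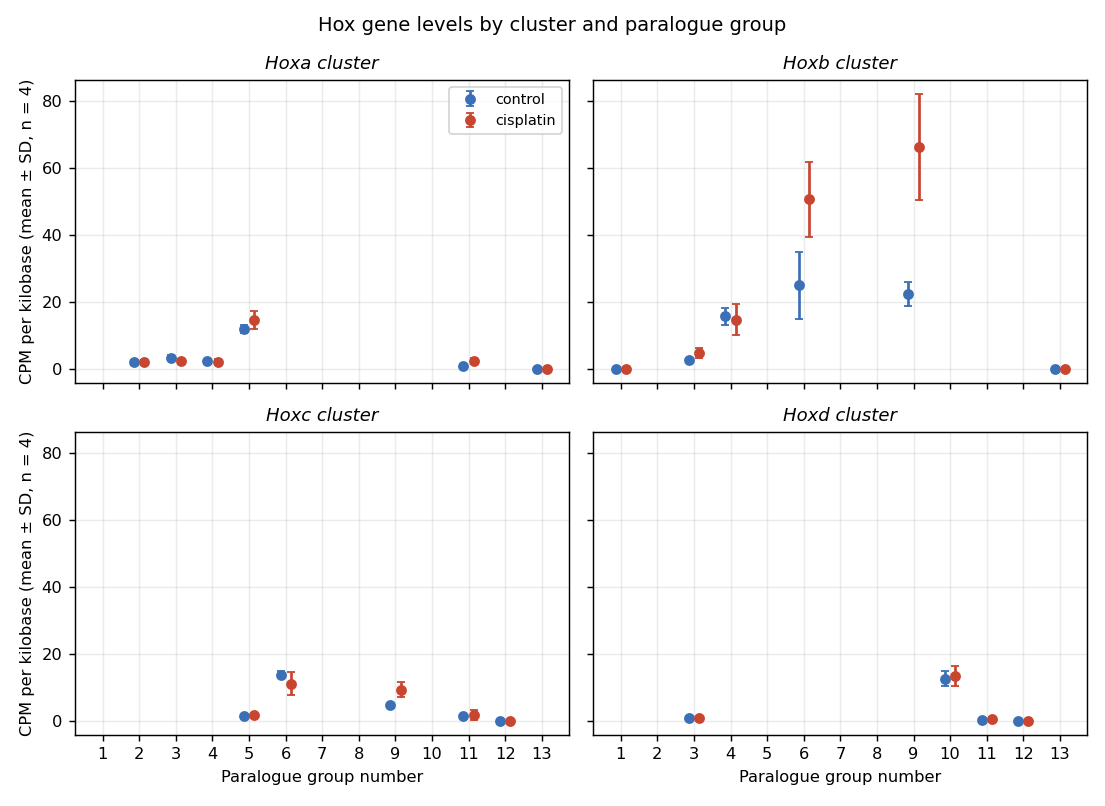
Mean level of 21 Hox genes in TMM-normalized CPM per kb of transcript, by cluster (panels) and paralog group number (horizontal axis), with bars for the SD of 4 libraries, control in blue and cisplatin in red. Hoxb9 and Hoxb6 are the highest in control kidneys, at 22.4 and 24.98 CPM per kb on average, and stand higher after cisplatin at 66.4 and 50.6 CPM per kb.

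Hox proteins bind DNA with cofactors of the Pbx, Meis and Tgif classes. Of 11 listed, 6 had values and 3 were up-regulated, with none down-regulated and a median log2FC of 0.47. Meis3 measured 2.83, 2.95, 1.52 and 2.67 CPM in the controls and 8.14, 9.35, 9.59 and 17.0 CPM after cisplatin (log2FC 2.14). Pbx4 had a log2FC of 1.97, and Tgif2 of 1.03 with an adjusted p of 0.0456. The Tgif2 call was lost without cisplatin 1 and 3 (1.12, adjusted p = 0.0664) and when any library but control 5 was left out (0.80 to 1.09, adjusted p from 0.0554 to 0.124). That left 2 cofactors called without cisplatin 1 and 3, and 3 in the first set.

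Both tested Tead genes, which encode the DNA-binding partners of the coactivators Yap and Taz, were up-regulated. Tead4 (ENSMUSG00000030353, chr6:128224288-128300823) measured 3.45, 2.71, 3.64 and 3.54 CPM in the controls and 9.78, 8.80, 10.3 and 14.4 CPM after cisplatin (log2FC 1.69, SE 0.25, adjusted p = 0.000449). Tead2 (ENSMUSG00000030796, chr7:45215753-45233644) measured 3.90, 4.07, 4.02 and 4.25 CPM in the controls and 10.6, 10.6, 5.56 and 7.69 CPM after cisplatin (1.09, SE 0.27, adjusted p = 0.00792). The groups were separate in both genes and the controls were nearly alike. Without cisplatin 1 or without cisplatin 3, Tead2 was at 0.96 and 0.95, under the fold threshold, and at 0.71 without both, against 1.35 in the first set. Tead4 was at 1.89 and 1.45 in the same comparisons. Exons of Tead2 overlap those of Cd37, a leukocyte gene on the other strand.

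Of the 6 Tead coactivators and regulators with values, none was called (median log2FC 0.18), although Amot was called down-regulated without cisplatin 1 and 3 (-1.18), and 2 of the list up-regulated with total library size. Of 9 known Tead target genes with values, 8 were tested and 4 were up-regulated, with none down-regulated and a median of 0.91. Ankrd1 measured 4.69, 4.87, 2.96 and 2.20 CPM in the controls and 66.4, 46.7, 20.9 and 35.2 CPM after cisplatin (log2FC 3.52). Edn1, the gene for endothelin, had a log2FC of 3.51 and Cyr61, a matrix protein, of 1.61. Birc5, a mitosis gene, had 1.32 (adjusted p = 0.018), and its call was lost in the first set (0.66, adjusted p = 0.0636), without cisplatin 6 (0.84) and without control 2 (1.25, adjusted p = 0.0512). The first set thus held 3 called targets. The fit without cisplatin 1 and 3 called 4 up-regulated and Crim1 down-regulated (-1.07), and total library size gave 5 up and none down. Birc5 was also on the list of proliferation markers, where 2 of 3 were up-regulated, none in the first set alone and 3 without cisplatin 1 and 3.

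The Gata, Tfap2 and Runx genes held factors of the collecting duct and distal nephron as well as of blood cells, and 2 were called. Gata6, of endodermal organs and vascular muscle, measured 3.19, 2.95, 0.834 and 0.786 CPM in the controls and 8.55, 6.93, 3.81 and 5.55 CPM after cisplatin (log2FC 1.69, SE 0.50, adjusted p = 0.0196). The groups were separate, but controls 1 and 2 were close to cisplatin 4. It was no longer called without control 3 (1.42, adjusted p = 0.0535), without cisplatin 1 (1.47, adjusted p = 0.0508) or without cisplatin 1 and 3 (1.27, adjusted p = 0.103), and was at 1.68 in the first set. Tfap2a (ENSMUSG00000021359, chr13:40715302-40738376) measured 11.8, 10.3, 14.7 and 7.39 CPM in the controls and 28.1, 44.7, 19.5 and 22.997 CPM after cisplatin (1.39, SE 0.30, adjusted p = 0.00423). All cisplatin libraries were above all controls, and without cisplatin 1 and 3 the estimate was 0.95, under the fold threshold, and in the first set it was 1.52.

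By the same test, the other tested genes of these families did not pass both thresholds. Tfap2b, a regulator of the distal convoluted tubule, measured 88.4, 89.9, 119 and 62.4 CPM in the controls and 87.4, 86.9, 25.6 and 22.7 CPM after cisplatin, a log2FC of -0.69 (adjusted p = 0.228). Cisplatin 1 and 3 were among the controls and cisplatin 4 and 6 below them all, and without cisplatin 1 and 3 it was called down-regulated at -1.89. Gata3, a factor of the nephric duct and collecting duct, measured 41.5, 33.3, 49.98 and 25.3 CPM in the controls and 50.8, 82.6, 24.1 and 24.7 CPM after cisplatin (0.28, adjusted p = 0.588). Its sign turned to -0.62 without cisplatin 1 and 3. Gata2 measured 44.1, 40.7, 50.1 and 50.2 CPM in the controls and 59.4, 65.8, 57.0 and 67.6 CPM after cisplatin, with separate groups and a log2FC of only 0.43 (adjusted p = 0.0259). Gata5 had a log2FC of -0.83 (adjusted p = 0.110) and was called down-regulated in the first set (-1.06, adjusted p = 0.0349). The estimates for Runx2 (0.66) and Runx3 (-0.32), known for bone and for lymphocytes, depended on the setting, and Runx3 was called down-regulated without cisplatin 1 and 3 (-1.12, adjusted p = 0.0402). Of 9 Gata and Runx partners with values, the Gata cofactor Zfpm1 was up-regulated (1.16) and the corepressor Runx1t1 down-regulated (-1.59, adjusted p = 0.0216), with a median log2FC of -0.46. The Runx1t1 call was lost without control 1 (-1.44, adjusted p = 0.0617), control 2 (-1.40, adjusted p = 0.0638) or cisplatin 6 (-1.40, adjusted p = 0.0531), and with total library size (-1.01, adjusted p = 0.117), while without cisplatin 1 and 3 it was at -2.60. That fit called 1 partner up-regulated and 3 down-regulated, adding Ldb2 (-1.77, adjusted p = 0.0319) and Zfpm2 (-1.34, adjusted p = 0.0471), whereas total library size gave 2 up-regulated and none down-regulated.

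The LIM and Emx homeobox genes held the largest decreases. Lhx1, required for the first renal tubules (ENSMUSG00000018698, chr11:84518284-84525535), measured 57.7, 49.5, 66.2 and 47.7 CPM in the controls and 8.73, 13.7, 20.6 and 16.5 CPM after cisplatin. All cisplatin libraries were well below all controls, and the mean fell from 55.3 ± 8.49 to 14.9 ± 4.97 CPM (SD, n = 4 each), a log2FC of -1.90 (SE 0.26, adjusted p = 0.000287). This was -1.57 without cisplatin 1 and 3 and -2.42 in the first set. Emx1, a gene of the cerebral cortex whose relative Emx2 builds the urogenital tract (ENSMUSG00000033726, chr6:85187438-85204462), measured 40.4, 33.1, 46.0 and 84.6 CPM in the controls and 5.96, 7.70, 12.3 and 10.5 CPM after cisplatin. The groups were far apart, with control 5 the highest, and the log2FC was -2.49 (SE 0.34, adjusted p = 0.000304), or -2.15 without cisplatin 1 and 3 and -2.60 in the first set. Lhx6, a gene of cortical interneurons, moved the other way from 0.797, 1.20, 1.14 and 0.393 CPM in the controls to 2.09, 2.42, 2.42 and 2.06 CPM after cisplatin (log2FC 1.34, SE 0.36, adjusted p = 0.0125), with 1.34 without cisplatin 1 and 3 and 1.04 in the first set. A second gene model on the same strand, Gm27953, overlaps its exons.

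Of 4 tested Tbx genes only Tbx10 was called. It measured 9.39, 7.10, 9.40 and 9.12 CPM in the controls and 0.591, 0.880, 4.10 and 5.39 CPM after cisplatin (log2FC -1.70, SE 0.62, adjusted p = 0.0442). The cisplatin libraries were all below the controls but fell into unequal pairs, and the log2FC was -3.61 in the first set alone and -0.88 without cisplatin 1 and 3. The adjusted p was 0.0811, 0.0631, 0.0810 and 0.0709 without control 1, 2, 3 or 5 (log2FC between -1.80 and -1.68), 0.0603 without cisplatin 1 (-1.35) and 0.0848 without cisplatin 3 (-1.40). With total library size it was 0.105 (-1.19). Tbx2, by contrast, was the most abundant Tbx gene at 32.8 ± 4.94 CPM per kb in controls and 33.5 ± 4.23 CPM per kb after cisplatin (SD, n = 4 each). Its log2FC was 0.03 with a standard error of 0.16, and its sign depended on the setting. Tbx3, its relative, had a log2FC of 0.65 (adjusted p = 0.0755).

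By the same test, none of the 8 tested genes of the Pax, Eya, Irx and Six-type families passed both thresholds. Pax8, the nephric lineage factor that stays on in adult tubules, had 30.7 CPM per kb in controls, of the same order as Tbx2, and measured 182, 204, 212 and 147 CPM in the controls and 245, 391, 203 and 155 CPM after cisplatin. Cisplatin 3 alone stood far out, and the log2FC was 0.42 (SE 0.27, adjusted p = 0.227). Irx3, of the intermediate tubule segments, measured 76.0, 46.8, 65.8 and 93.6 CPM in the controls and 36.3, 46.2, 60.6 and 58.7 CPM after cisplatin (-0.48, adjusted p = 0.120), with overlapping groups. Irx2 had a log2FC of 0.11 and Irx5 of 0.49. Eya3, a phosphatase and coactivator of Six-type proteins, measured 59.0, 60.2, 64.5 and 56.3 CPM in the controls and 57.9, 68.4, 48.0 and 45.4 CPM after cisplatin (-0.13). Eya2 had a log2FC of 0.79 (adjusted p = 0.0892), Eya4 of 0.41 and Six5 of -0.13. Eya2 was called up-regulated under several alternatives, among them the first set (1.13, adjusted p = 0.0228) and total library size (1.37, adjusted p = 0.0107), and was at 0.34 without cisplatin 1 and 3. Of the partners of Pax, Eya and Six-type proteins listed, 2 had values and neither was called, but Paxbp1 was called up-regulated in the first set (1.01) and Dach1 down-regulated without cisplatin 1 and 3 (-1.40).

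Altogether 45 of the 66 tested genes were not called, beside 5953 of all 9141. The groups overlapped in 39 of them and 31 had a log2FC between -0.5 and 0.5. Foxo4, Gata2, Foxc1 and Hoxb3 passed the adjusted p without the fold. Of the 45, 15 were called under at least 1 alternative. The 9 called with total library size were Eya2, Foxc1, Foxd1, Foxd2, Hoxb3, Hoxd11, Irx5, Snai1 and Tbx3. Of the 27 genes that were not tested, 10 had 0 counts in every library, Pax4, Pax7, Hoxb13 and Six6 among them. The other 17, which included Six2, Sox2, Pax3, Tbx5 and Hoxa13, had at most 4 counts in any library. Of these 17, 14 had counts in cisplatin libraries only, and no change is claimed at this depth.

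The cisplatin libraries differed among themselves in the same genes. In 13 of the 66 genes (19.7%, against 11.6% of all genes) the mean of cisplatin 1 and 3 was over 2 times that of cisplatin 4 and 6. These were Sox11, Tfap2b, Snai2, Sox5, Sox4, Gata3, Hoxd3, Runx3, Foxp1, Eya4, Runx2, Zeb1 and Six5. In 4 genes (6.06%, against 12.7%) it was under 0.5 times, namely Foxa1, Hoxc11, Foxf1 and Tbx10. The pairs are separated both by library set and by the Y-linked counts, and these cannot be told apart.

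**Figure D4:**
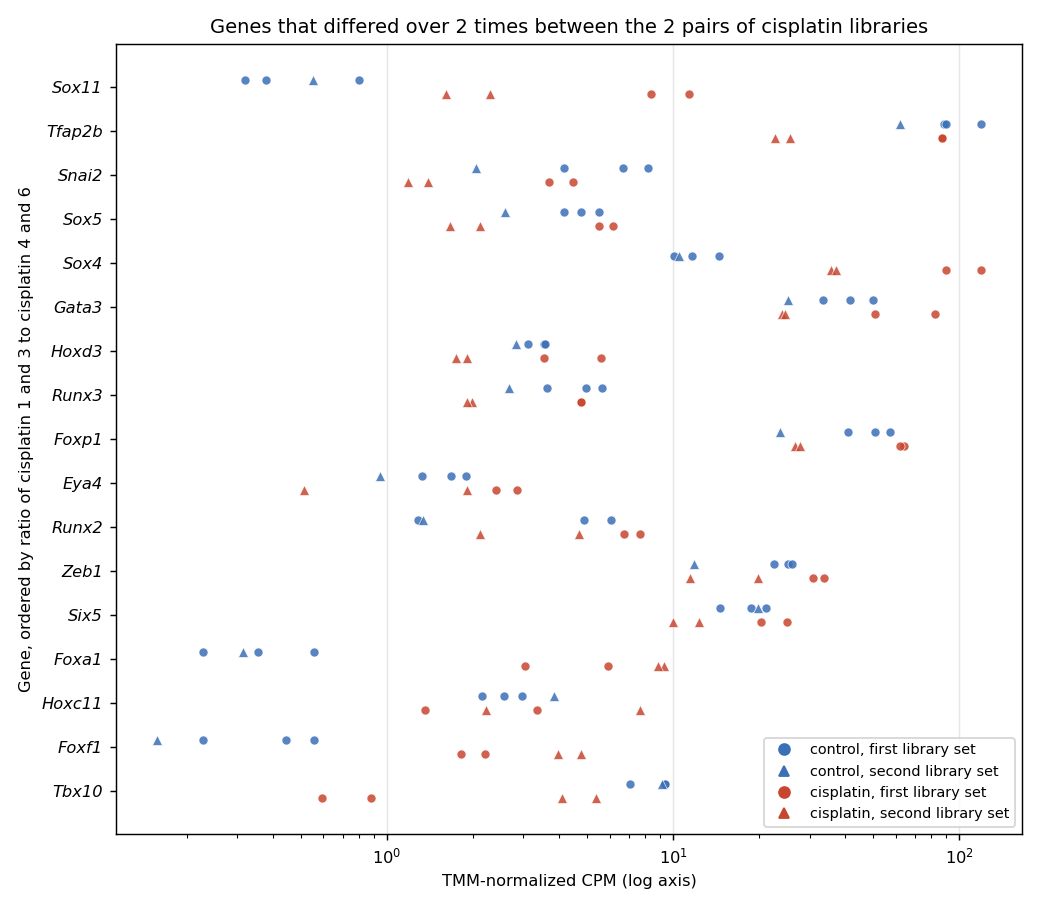
Each tested gene whose mean CPM in cisplatin 1 and 3 was over 2 times or under 0.5 times that in cisplatin 4 and 6, with its value in the 8 libraries on a log axis of TMM-normalized CPM. Sox11, for example, has 8.37 and 11.4 CPM in the first pair and 1.61 and 2.30 CPM in the second, and Tbx10 is the other way round, with 0.591 and 0.880 against 4.10 and 5.39 CPM.

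Regulators of kidney development outside these families were called in both directions, and the balance depended on the scaling. Of 49 listed, 24 had values and 23 were tested, of which 8 were down-regulated and 3 up-regulated, with a median log2FC of -0.45. Total library size gave 5 down-regulated and 5 up-regulated, and the first set and the fit without cisplatin 1 and 3 each gave 8 and 3. Hnf4a, which maintains the proximal tubule, measured 1371, 1201, 1407 and 1932 CPM in the controls and 85.3, 128, 253 and 187 CPM after cisplatin (log2FC -3.18). Osr1 (-2.10), Osr2 (-1.08), Bnc2 (-3.09), Prdm1 (-1.17), Wnt11 (-1.97) and the Gdnf coreceptor gene Gfra1 (-2.03) were also down-regulated. The Gfra1 and Wnt11 calls were lost without cisplatin 1 and 3 (-1.68, adjusted p = 0.0928, and -1.93, adjusted p = 0.0672). Osr2 fell under the fold threshold without control 3 (-0.92), cisplatin 1 (-0.95) or cisplatin 6 (-0.98), and Osr2 (-0.52), Prdm1 (-0.61) and Wnt11 (-1.42) did not pass with total library size. Grhl2 (1.44), the Notch target Heyl (1.37) and Cdh6, a cadherin of early nephrons (1.68), were up-regulated. Without cisplatin 1 and 3 Cdh6 was at 0.62 (adjusted p = 0.0699) and Grhl2 at 0.93, so neither was called, and Heyl was at 1.05. That fit added Hey1 (1.03), Nr2f1 (1.01), Dach1 (-1.40) and Prdm16 (-1.52) to the called genes. Of 5 Sox partners and Sox9 targets with values, 4 were tested, and Cdh6 and the cartilage collagen Col11a2 (1.15, adjusted p = 0.0329) were up-regulated, with a median of 0.52. The Col11a2 call was lost in the first set (0.94, adjusted p = 0.0568) and when control 1, 2 or 3 or cisplatin 3, 4 or 6 was left out (0.99 to 1.18, adjusted p from 0.0505 to 0.0927).

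Cell type markers moved with the treatment beside all of these genes, and their part in the results was not tested. The counts below are out of the markers tested, and many listed markers had no values. All 7 proximal tubule markers were down-regulated, and their summed level was 53307, 46625, 54411 and 58463 CPM in the controls and 890, 618, 7013 and 12223 CPM after cisplatin, with Kap, an androgen-regulated kidney gene, the most abundant. Kap itself was at 544 and 229 CPM in cisplatin 1 and 3 and at 6220 and 11022 CPM in cisplatin 4 and 6. Of 3 fibroblast and pericyte markers tested, with 6 listed, 2 were up-regulated. The 3 summed to 141, 138, 32.8 and 53.5 CPM in the controls and 991, 917, 208 and 679 CPM after cisplatin. Col3a1 was the most abundant. Of 5 neutrophil markers 4 were up-regulated, from sums of 4.1 to 5.8 CPM to sums of 13.4 to 24.98 CPM, with Csf3r the most abundant. Principal cell markers, led by Aqp2, were up-regulated in 2 of 3, thick ascending limb markers, led by Umod, down-regulated in 1 of 2, and distal convoluted tubule markers, led by Slc12a3, down-regulated in 1 of 2. Neither of 2 endothelial markers was called, with 7 listed. Among podocyte markers 1 of 3 was up-regulated (5 listed), as were 1 of 2 macrophage markers (6 listed) and 1 of 2 B cell markers (4 listed). Among intercalated cell markers 1 of 3 was down-regulated, as were 1 of 4 T cell markers and 3 of 4 red cell markers, and the smooth muscle marker tested was not called. No tested marker was at 0 in all libraries. Some of these marker calls were lost and others gained. Umod was at -0.96 in the first set and was not called without control 5 (-1.59, adjusted p = 0.0665) or cisplatin 4 (-1.66, adjusted p = 0.0678). Kap was not called when any library but cisplatin 3 or 6 was left out (adjusted p from 0.0579 to 0.0642). The podocyte marker Cdkn1c (1.05) was under the fold threshold in the first set (0.83) and without control 1 (0.99) or cisplatin 6 (0.88), and 1 of 4 red cell markers was called without cisplatin 1 and 3, but all 4 in the first set. Cd4 (-2.57), Trac (-1.26) and Cd3g (-3.06, not tested with all libraries) joined, without cisplatin 1 and 3, the T cell markers called down-regulated, for 4 in all. The same fit called both thick ascending limb markers, with Slc12a1 at -3.64, and 2 of 3 intercalated cell markers, with Slc26a4 at -1.10. The endothelial marker Kdr was called down-regulated there (-1.01) and in the first set (-1.07), where all 5 neutrophil markers were up-regulated.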

How the data were processed

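The authors deposited a table of raw counts per gene for bulk RNA-seq of 8 kidneys, with gene coordinates, biotypes and lengths. The submitters' processing notes name fastp, HISAT2 and the build GRCm38, and the counting program, its use of strand and the annotation release are not given in the sources used here. Of 53715 rows, 17835 (33.2%) held 10 values against 8 named columns and were not used, so 2 value columns stayed unnamed and unused. Groups were taken from the sample labels.

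All 35880 rows with 8 counts entered edgeR 4.0.16 (R 4.3.3) with the low-count filter filterByExpr and TMM scaling, and 9141 genes were fitted with the quasi-likelihood test (glmQLFit, glmQLFTest) on the 4 control and 4 cisplatin libraries. P-values were adjusted over all of them by the Benjamini-Hochberg method, and a call needed an adjusted p below 0.05 and a log2FC of at least 1 in size. The p-values measure only the spread between these libraries. On simulated data with 190 genes changed in 9060 for this comparison, the test recovered 78.4% at a log2FC of 2 and called 8 unchanged genes. The simulation had few changed genes, balanced up and down, and no library sets. In the data 1754 genes were called up and 1434 down, so these rates need not hold there. The 300-base start windows were read from RefSeq (GRCm38.p6), and exon overlaps from GENCODE M21, where 90 of the 93 genes had the deposited start and end.

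Named genes were all called genes, the 2 genes of each family with the highest level per kilobase, and called genes of the lists; other genes were added after their values were seen. The genes, lists and markers were chosen with earlier results of these data known. Alternatives were DESeq2 1.42.0, other scalings and filters, a replicate block, the library sets, and each library left out. Some values are not reported here.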

Additional observations from a re-analysis of the deposited data

Results flagged for a closer look

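In 76 groups of 4 libraries, the highest or lowest value was compared with the rest of its group by Dixon's gap, and 2 stood out, where chance gives about 1 in 20. Foxo4 measured 54.56 CPM in cisplatin 6, against 41.44 to 43.66 CPM in the other cisplatin libraries. Tbx10 measured 7.1 CPM in control 2, against 9.121 to 9.404 CPM in the other controls.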

How the results depend on the processing

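Of the 21 called genes, 13 were called under every alternative that could test them (the test against a log2FC of 1, below, was counted only as a total), and Foxs1, Gata6, Hoxb6, Hoxc9, Tbx10, Tead2 and Tfap2a were among the 8 lost under at least 1, with no reversal. The cause was not tested. Numbers called were close to 18 up and 3 down with DESeq2 (17 and 3), its size factors (16 and 3), upper quartile scaling (19 and 3), no filter (18 and 3), a fit that left out mitochondrial genes and the 10 genes with most counts (18 and 3) and the library set as a covariate (17 and 3). Total library size gave 3174 of all genes up and 803 down, against 1754 and 1434. A minimum of 10 counts in every library, which removes genes near 0 in controls, left 11 of these genes and 1101 of all genes up. Testing against a log2FC of 1 left 9 of these genes up and 2 down, with 885 of all genes up. Without cisplatin 1 and 3 the genes down were 6. Leaving out each library gave 14 to 18 up and 2 to 3 down. Libraries numbered 1 and 3 in both groups share only a number (correlation of deviations 0.25 and 0.28), and a replicate block gave 19 up and 3 down, with Hoxc9 at 0.73 and new calls for Eya2 (1.54), Runx2 (1.40) and Snai1 (1.31). Among genes of the lists, the block took the calls of Birc5 (0.61), Cdh16 (-0.59), Runx1t1 (-0.91), Cdk1 (0.65), Umod (-0.93) and Cdkn1c (0.85) and added those of Nr2f1 (1.30), Paxbp1 (1.02), Cdh1 (1.08), Kdr (-1.07), Lum (1.66), Csf3r (1.06) and Hba-a1 (-8.36).

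Among the 66 tested genes the sign turned under at least 1 alternative in 27, and none of these was called. With total library size it turned in 14, and the log2FC was 0.45 for Eya3, 0.0737 for Irx3, 0.27 for Runx3, 0.45 for Six5, 0.43 for Sox18, 0.49 for Hoxb4, 0.43 for Sox12, 0.46 for Sox5, 0.0598 for Hoxa3 and 0.57 for Hoxd3. With the replicate block it turned in 9, among them Eya3 (0.0296), Runx3 (0.0644), Six5 (0.445), Tbx2 (-0.0561), Hoxb4 (0.26), Hoxd3 (0.34) and Sox5 (0.38). With the library set as a covariate it turned in 4, with Tbx2 at -0.0037, and in the first set alone in 6, with Six5 at 0.26, Hoxb4 at 0.27, Hoxd3 at 0.37 and Sox5 at 0.22. It turned in 10 without cisplatin 1 and 3, with Gata3 at -0.62, Pax8 at -0.0488, Runx2 at -0.0017, Zeb1 at -0.46, Foxp1 at -0.67, Eya4 at -0.28 and Hoxd10 at -0.19. Leaving out 1 library at a time turned 13, and gave -0.0611 to 0.11 for Tbx2, -0.0186 to 0.24 for Irx2, -0.0601 to 0.39 for Zeb1, -0.20 to 0.49 for Gata3, -0.41 to 0.0501 for Six5 and -0.37 to 0.0887 for Sox18. With 3 counts at up to 0.266 CPM, fold changes of genes under 1 CPM in controls rest on few reads.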
